A study of Mus musculus with 6 samples.

Results

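The 28 genes described here make, move or store cholesterol, and were measured by polyA RNA sequencing of cultured hepatic stellate cells, liver pericytes that store retinoids, freshly isolated from mice. They were taken by symbol from the 24940 genes of the deposited exon count table, all 28 were found, and all passed the filter on low counts that left 13357 genes for testing. In the account below, 23 of them form the synthesis group (18 enzymes, the 4 genes of the SREBP2 system and the sterol carrier gene Stard4) and 5 form the efflux and storage group (Abca1, Abcg1, Mylip, Npc1 and Soat1). The cells came from wild-type female mice of a C57BL/6J substrain, which the labels write C57BL6/JBomTac and C57BL/6JBomTac. At 2 days after isolation one group of 3 libraries (Fsk) received 5 µM forskolin for 3 h, and the other group of 3 libraries (Ctrl) received the vehicle dimethyl sulfoxide at 1:1000. The medium was then changed in both groups, and RNA was collected 21 h later, 24 h after the start. Forskolin is a plant diterpene that raises cyclic AMP through adenylyl cyclase. The mice's age is not given, and nothing in the labels ties libraries A, B and C to different mice or dishes, so p-values here measure only the spread between libraries, which may be technical.

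Cholesterol is built from acetyl-CoA through mevalonate and farnesyl diphosphate to squalene, which is closed to lanosterol and then trimmed to cholesterol. When membrane sterol is low, the escort protein SCAP carries SREBP2 from the endoplasmic reticulum to the Golgi, where proteases free the transcription factor part that switches on most of these enzymes, and INSIG proteins hold the complex back when sterol is high. When oxysterols rise, the LXR receptors switch on the export pumps ABCA1 and ABCG1 and the ligase MYLIP, while SOAT1 stores the surplus as esters. In mouse stellate cells, a build-up of free cholesterol has been linked to activation of the cells.

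Counts per library ranged from 10890193 to 12954310 in Fsk and from 13001358 to 15090262.5 in Ctrl, so each Ctrl library was deeper than each Fsk library. Levels are CPM (counts scaled to a common library size with TMM factors), and differences are log2 fold changes of Fsk over Ctrl with a standard error (SE), the scale on which a gene is said to fall or rise by an amount. A gene was called when its adjusted p was below 0.05 in edgeR's quasi-likelihood test, adjusted by Benjamini-Hochberg over the 13357 genes. By that rule 49.9% of all tested genes were called, 25.1% lower and 24.8% higher with Fsk, and their median log2 fold change was 0.01. All 10 stellate cell markers were tested, 4 rose and 4 fell. Their summed level was 3902 to 4002 CPM in Fsk and 4001 to 4211 CPM in Ctrl. Col1a1 (1285 and 1540 CPM in Fsk and Ctrl) and Reln (927 and 831 CPM) had the highest levels. By log2 fold change, Tcf21 (-1.96), Des (-0.83), Pdgfrb (-0.43) and Col1a1 (-0.26) fell, and Hgf (1.02), Hand2 (0.29), Ecm1 (0.25) and Reln (0.16) rose. Of 10 hepatocyte markers, 8 had fewer than 10 counts over the 6 libraries (Fgb had none), and the sum was 4.65 to 5.34 CPM in Fsk and 4.49 to 4.88 CPM in Ctrl. Of 11 macrophage markers 8 were as low, and the sum was 37.9 to 39.2 CPM in Fsk and 34.6 to 36.8 CPM in Ctrl. The other 3 moved apart: Lyz2 fell (log2 fold change -1.36), and Cd68 (0.50) and Csf1r (0.47) rose. The 5 cholangiocyte markers summed to 35.9 to 44.7 CPM in Fsk and 69.4 to 78.8 CPM in Ctrl, most of it Krt19 (35.1 and 71.3 CPM). Of the 3 that were tested, Krt19 and Tm4sf4 (0.514 and 1.10 CPM) fell, and Sox9 (3.48 and 1.53 CPM) rose. The summed level of 10 endothelial markers was 96.3 to 100.3 CPM in Fsk and 233 to 241 CPM in Ctrl, most of it Flt4 (79.7 and 195 CPM). Of those 10, 6 were tested: Flt4, Flt1 (8.54 and 27.9 CPM in Fsk and Ctrl), Lyve1 (3.28 and 5.10 CPM), Kdr and Tek fell, and Stab2 rose (2.50 and 0.978 CPM). The other 4, Clec4g, Pecam1, Cdh5 and Oit3, averaged below 1 CPM in both groups. The part of the endothelial, macrophage and cholangiocyte markers, and of depth, in the results below was not tested. Polyadenylated RNA from bulk cells does not tell fewer cells of a type from less RNA per cell.

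The promoters give a first view of what the synthesis genes share beyond their function. RefSeq promoter sequences (GRCm38.p6, the genome that mm10 also names) were found for 22 members, 19 of the synthesis group and 3 of the efflux and storage group, and the 250 bases before each start were searched on both strands. The core of the SREBP element, TCACNCCAC, was found before 1 of the 19 synthesis genes, Hmgcs1, beginning 137 bases upstream. It was found before 1.22% of all 27025 genes with a promoter and 1.27% of the 10378 of them tested for expression. The NF-Y box CCAAT, bound by a partner of SREBP2, was found before 17 of 19 (89.5%), against 37.5% of all genes and 40.4% of tested genes. Counted by window, since some genes have several starts, it was in 17 of 25 (68.0%) against 33.8%. The box was not limited to the synthesis group, since 2 of the 3 efflux and storage genes (66.7%), Mylip and Soat1, had it too. The cyclic AMP response element TGACGTCA was found before none of the 19 synthesis genes and none of the 3 others. It was found before 1.77% of all genes and 3.03% of tested genes. A match is a description of these letters and not evidence of binding, and a lack of one says nothing of the factor. The next lines show 4 of the windows, 5′ to 3′ on the gene's own strand, with matches to the SREBP core or to CCAAT on either strand (read as ATTGG on the other) in capitals. They were chosen to set the gene with the SREBP core, the synthesis gene with the largest fall (Sc5d) and an enzyme gene that was not called (Mvk) beside the efflux gene that rose (Abca1), which had no match.
Hmgcs1 (chr13:119690101-119690350, plus strand): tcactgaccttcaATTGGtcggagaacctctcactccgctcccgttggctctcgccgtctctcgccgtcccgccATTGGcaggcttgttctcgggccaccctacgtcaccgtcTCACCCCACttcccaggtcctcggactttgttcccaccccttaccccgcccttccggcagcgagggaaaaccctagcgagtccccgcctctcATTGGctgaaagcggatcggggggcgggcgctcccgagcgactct
Sc5d (chr9:42264301-42264550, minus strand): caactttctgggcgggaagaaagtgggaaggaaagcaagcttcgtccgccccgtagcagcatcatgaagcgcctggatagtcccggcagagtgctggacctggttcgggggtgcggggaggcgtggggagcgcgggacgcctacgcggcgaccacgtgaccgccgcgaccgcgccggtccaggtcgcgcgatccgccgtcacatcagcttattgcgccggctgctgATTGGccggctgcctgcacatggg
Mvk (chr5:114444019-114444268, plus strand): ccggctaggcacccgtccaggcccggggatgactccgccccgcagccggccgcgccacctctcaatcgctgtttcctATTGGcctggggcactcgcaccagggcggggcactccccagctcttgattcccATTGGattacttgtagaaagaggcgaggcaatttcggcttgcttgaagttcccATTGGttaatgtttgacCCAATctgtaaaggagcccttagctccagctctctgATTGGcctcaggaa
Abca1 (chr4:53159896-53160145, minus strand): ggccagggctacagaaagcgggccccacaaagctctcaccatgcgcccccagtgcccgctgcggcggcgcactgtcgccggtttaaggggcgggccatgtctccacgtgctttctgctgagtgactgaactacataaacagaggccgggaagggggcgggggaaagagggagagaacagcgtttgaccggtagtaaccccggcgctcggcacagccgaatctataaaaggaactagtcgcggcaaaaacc
Mvk held 5 NF-Y boxes in this window and Sc5d held 1. Sc5d fell and Mvk was not called, as described next. Fdps, Fdft1, Sqle, Stard4, Abcg1 and Npc1 were not matched. In the synthesis group Acat2, which fell, and Scap, which rose, had no box in any window. Dhcr7, Insig2 and Pmvk, which were not called, had windows with a box and windows without one. They count as having a box by gene.

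Most synthesis genes were lower after forskolin, by modest amounts. Of the 23, 14 fell (60.9%, against 25.1% of all genes tested), 2 rose (24.8% of all genes) and 7 were not called. The median log2 fold change of the 23 was -0.35, against 0.01 over all tested genes. Of the 23, 4 differed by more than 1.5-fold. The CPM of the groups did not overlap for 14 genes that were lower and 1 that was higher, against 57.2% of all tested genes, 28.3% lower and 28.8% higher. With library size as a covariate 9 genes were called lower, beside 2299 of all 13357 tested genes in that fit. Of the 16 genes that share little sequence or exon with another gene, a subset chosen after values were seen, 9 fell and 1 rose. The summed level of the 18 enzyme genes was 721 ± 54.0 CPM in Fsk and 922 ± 15.5 CPM in Ctrl (SD, n = 3 each), which is 78.1% of the Ctrl sum. The members were chosen with results of these data known, so their count is read beside the background and carries no p of its own.

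**Figure D1:**
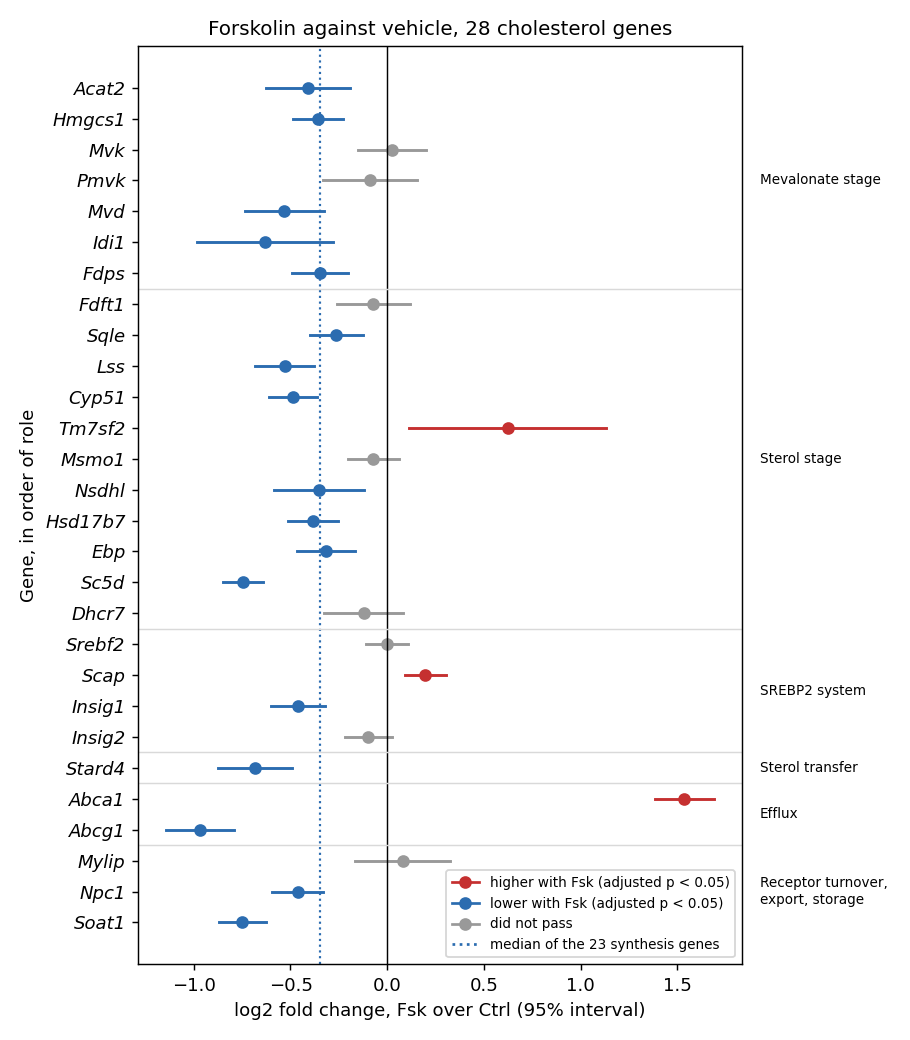
Log2 fold change of Fsk over Ctrl (x axis) with its 95% interval for the 28 genes, ordered by role down the y axis, with called genes in red (higher) or blue (lower) and genes that were not called in grey. Points of the synthesis group spread from -0.75 (Sc5d) to 0.62 (Tm7sf2), with their median of -0.35 dotted, while Abca1 stands at 1.54 and Abcg1 at -0.97.

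In the mevalonate stage, which ends at farnesyl diphosphate, 5 of 7 genes fell and none rose. Hmgcs1 (mm10 chromosome 13, 119690351 to 119708260), which encodes the cytosolic HMG-CoA synthase, had 80.6, 84.2 and 94.7 CPM in Fsk A, B and C and 107, 107 and 119 CPM in Ctrl A, B and C. The groups did not overlap, and its log2 fold change was -0.36 (SE 0.061, edgeR adjusted p = 8.67e-05). Mvd, the mevalonate diphosphate decarboxylase gene, had 14.4, 13.9 and 15.8 CPM in Fsk and 21.0, 22.1 and 20.6 CPM in Ctrl, and its log2 fold change was -0.53 (SE 0.097, adjusted p = 0.000172). Idi1, the isopentenyl diphosphate isomerase gene, was the lowest of the stage at 4.86 ± 0.769 CPM in Fsk and 7.56 ± 0.786 CPM in Ctrl, and fell by 0.63. Fdps, the farnesyl diphosphate synthase gene, and Acat2, the thiolase gene that starts the pathway, fell by 0.35 and 0.41. The kinase genes between them were not called. Mvk had 32.7 ± 3.53 CPM in Fsk and 32.1 ± 1.23 CPM in Ctrl, with a 95% interval of the log2 fold change of -0.15 to 0.20, and Pmvk had an interval of -0.33 to 0.16. The counts of 4 genes of this stage are uncertain, since 13.6% of the 50-base stretches of Fdps, 54.1% of those of Acat2, 69.5% of those of Idi1 and 86.4% of those of Hmgcs1 occur in no other annotated gene. Gm48342 on the other strand covers 557 of the 3482 exon bases of Hmgcs1.

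In the sterol stage, from squalene to cholesterol, 7 of 11 genes fell, 1 rose and 3 were not called. Sc5d (chromosome 9, 42254177 to 42264300), the sterol desaturase gene, fell most of all 23, with 69.4, 64.2 and 67.1 CPM in Fsk and 112, 114 and 111 CPM in Ctrl. Every Fsk library was far below every Ctrl library, and the log2 fold change was -0.75 (SE 0.050, edgeR adjusted p = 6.22e-10). The lanosterol synthase gene Lss had 40.6, 36.0 and 43.6 CPM in Fsk and 54.3, 59.5 and 59.4 CPM in Ctrl, and fell by 0.53 (SE 0.073, adjusted p = 8.3e-06). Cyp51, which encodes the lanosterol demethylase, had 78.2, 84.7 and 96.0 CPM in Fsk and 121, 123 and 119 CPM in Ctrl, and fell by 0.49 (SE 0.060, adjusted p = 2.2e-06). A gene on the other strand covers 8.16% of the exon bases of Lss. For both Lss and Cyp51 the groups were apart, as they were for Hsd17b7, a sterol ketone reductase gene (-0.38), Ebp, a sterol isomerase gene (-0.32), and Sqle, the squalene epoxidase gene (-0.26). Nsdhl, a sterol dehydrogenase gene, fell by 0.35 (adjusted p = 0.0131) with overlapping groups, since Fsk C at 25.8 CPM was above Ctrl A at 25.4 CPM. That call was lost without Fsk B (adjusted p = 0.0765) and without Ctrl B (0.0794).

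Squalene synthase (Fdft1), methylsterol monooxygenase (Msmo1) and the last reductase of the pathway (Dhcr7) were not called. Msmo1 had 68.4 ± 5.81 CPM in Fsk and 72.0 ± 3.35 CPM in Ctrl, with an interval of the log2 fold change of -0.21 to 0.06, which does not reach the median of the group. The intervals were -0.26 to 0.12 for Fdft1 and -0.33 to 0.08 for Dhcr7. Fdft1 shares 20.9% of its exon bases with Ctsb, a lysosomal protease gene on the other strand, and the labels do not state that strand was kept, so reads of the 2 genes cannot be told apart there. Ctsb, chosen after its values were seen, rose, with 649 CPM in Fsk and 508 CPM in Ctrl (log2 fold change 0.35). The part of Ctsb in the counts of Fdft1 was not tested. Without Fsk C, Fdft1 was called lower (-0.20, adjusted p = 0.0359). Tm7sf2, which encodes a sterol reductase whose reaction the lamin B receptor also catalyses, was the only enzyme gene that rose. It had 53.5, 63 and 35.5 counts in Fsk and 34, 34 and 44 counts in Ctrl, or 4.92, 4.76 and 2.96 CPM in Fsk and 2.51, 2.28 and 3.46 CPM in Ctrl. Its groups overlapped, the log2 fold change was 0.62 (SE 0.242, adjusted p = 0.0399), and the call was lost under 7 of 12 alternatives, with adjusted p of 0.00525 to 0.483 over the 12.

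**Figure D2:**
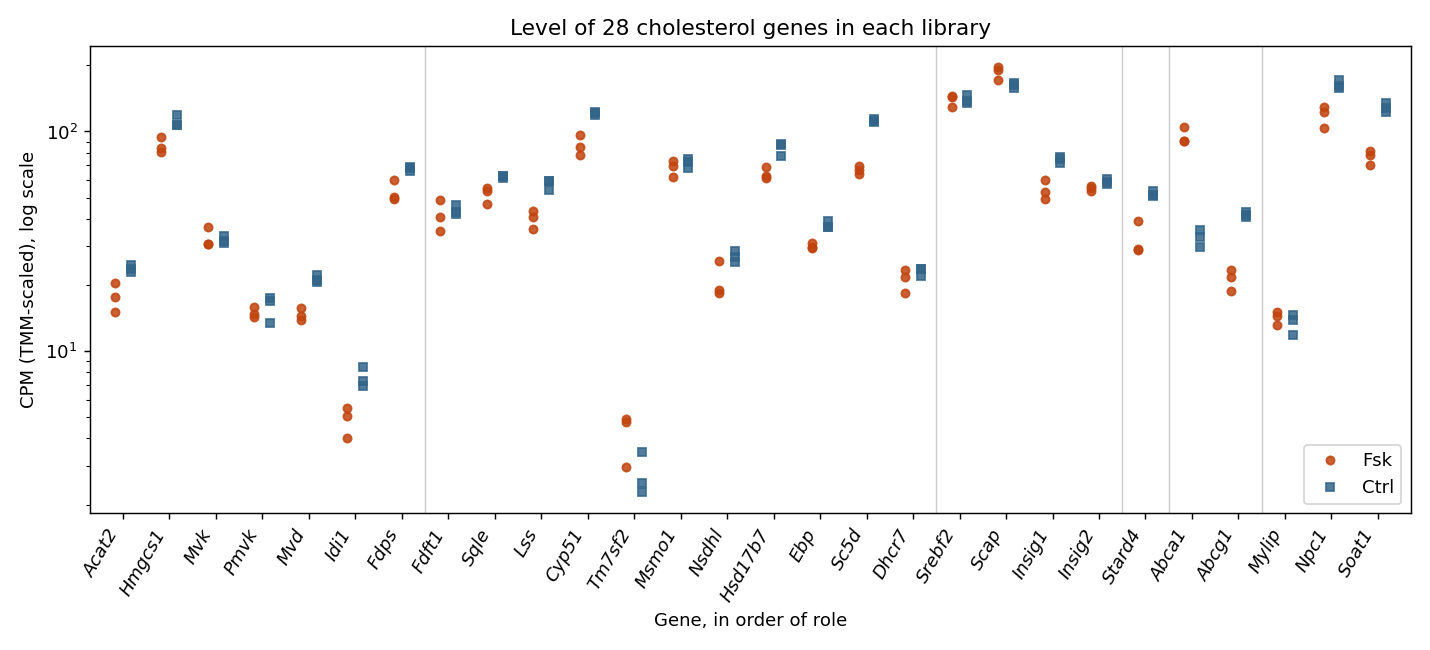
CPM on a log scale (y axis) of the 28 genes (x axis, in order of role) in each library, with Fsk as orange circles left of Ctrl as blue squares. Sc5d, Abca1, Abcg1 and Soat1 show clearly separate groups, whereas Mvk, Msmo1, Srebf2 and Mylip overlap.

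The SREBP2 system did not move as one. Srebf2, the gene of the transcription factor itself, had 129, 144 and 146 CPM in Fsk and 135, 146 and 138 CPM in Ctrl. These ranges overlap almost wholly, and the log2 fold change was -0.001 with a 95% interval of -0.11 to 0.11 (edgeR adjusted p = 0.983). Scap (chromosome 9, 110333356 to 110384949), the escort gene, rose, with 171, 190 and 196 CPM in Fsk and 157, 166 and 163 CPM in Ctrl (log2 fold change 0.20, SE 0.050, adjusted p = 0.00305). An antisense gene covers 18.6% of the exon bases of Scap. Insig1 (chromosome 5, 28071412 to 28078662), whose product retains SCAP and which is itself a target of SREBP2, fell, with 49.2, 53.0 and 59.9 CPM in Fsk and 76.5, 74.9 and 72.0 CPM in Ctrl. Its log2 fold change was -0.46 (SE 0.066, adjusted p = 1.29e-05). Insig2, its paralogue with the same retaining role, had 53.5, 56.5 and 55.2 CPM in Fsk and 58.6, 60.6 and 57.6 CPM in Ctrl. Its groups were just apart but it was not called (-0.10, adjusted p = 0.167). Per kilobase of exon, Insig1 stood at 0.999 ± 0.092 of the level of Insig2 in Fsk and at 1.29 ± 0.038 in Ctrl (SD, n = 3 each).

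Stard4 (chromosome 18, 33199138 to 33213862), which encodes a soluble carrier that moves sterol between membranes and is a target of SREBP2, fell by 0.68 (SE 0.091, edgeR adjusted p = 5.96e-06). It had 28.7, 29.2 and 39.0 CPM in Fsk and 53.7, 51.2 and 50.8 CPM in Ctrl. Fsk C lay above its fellow libraries and still below each Ctrl library.

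The same library stood apart across the synthesis group. Relative to the Ctrl mean of each gene, the median log2 ratio of the 23 genes was -0.42 in Fsk A, -0.33 in Fsk B and -0.18 in Fsk C, and -0.03, 0.04 and -0.02 in Ctrl A, B and C. Fsk C was the highest of the Fsk libraries for 18 of the 23 genes, and Fsk A had 21 genes below the Ctrl mean, Fsk B 20 and Fsk C 16. Of the efflux and storage group, Fsk C was the lowest Fsk library for 4 of 5 genes. Without Fsk C the synthesis median was -0.40 and without Fsk A it was -0.29, with 15 and 14 genes called lower. Fsk A was the shallowest Fsk library and Fsk B the deepest, and the part of depth in this order was not tested.

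**Figure D3:**
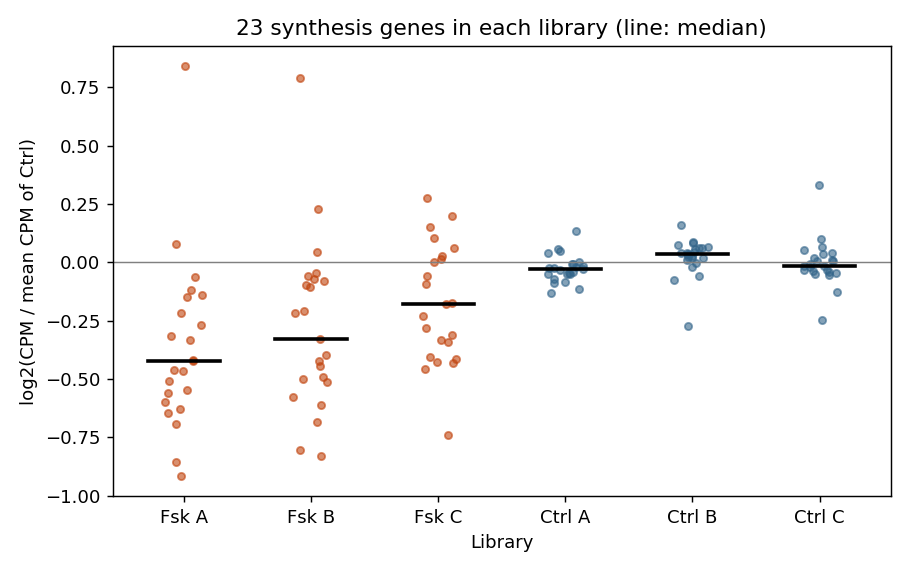
Log2 ratio of each of the 23 synthesis genes to its Ctrl mean (y axis) in each of the 6 libraries (x axis), with the median as a line. The medians of the Fsk libraries are -0.42, -0.33 and -0.18, and the Ctrl libraries lie around 0.

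The 2 export pumps went opposite ways. Abca1 (chromosome 4, 53030789 to 53159895), which hands cholesterol to lipid-poor apolipoprotein A-I, rose 2.90-fold, the only one of the 28 genes to differ by more than 2-fold. It had 90.03, 105 and 90.6 CPM in Fsk and 35.5, 29.9 and 33.2 CPM in Ctrl (log2 fold change 1.54, SE 0.073, edgeR adjusted p = 5.88e-12). Abcg1 (chromosome 17, 31057694 to 31117981), which exports cholesterol to mature high-density lipoprotein, had 23.5, 21.8 and 18.8 CPM in Fsk and 42.8, 40.8 and 41.7 CPM in Ctrl. It fell by 0.97 (SE 0.083, adjusted p = 2.07e-08), and for neither pump did the groups overlap. Per kilobase of exon, the level of Abca1 was 2.18, 2.73 and 2.73 times that of Abcg1 in Fsk A, B and C, and 0.471, 0.416 and 0.452 times in Ctrl A, B and C. The order of the pumps by level was thus Abca1 over Abcg1 in each Fsk library and Abcg1 over Abca1 in each Ctrl library.

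**Figure D4:**
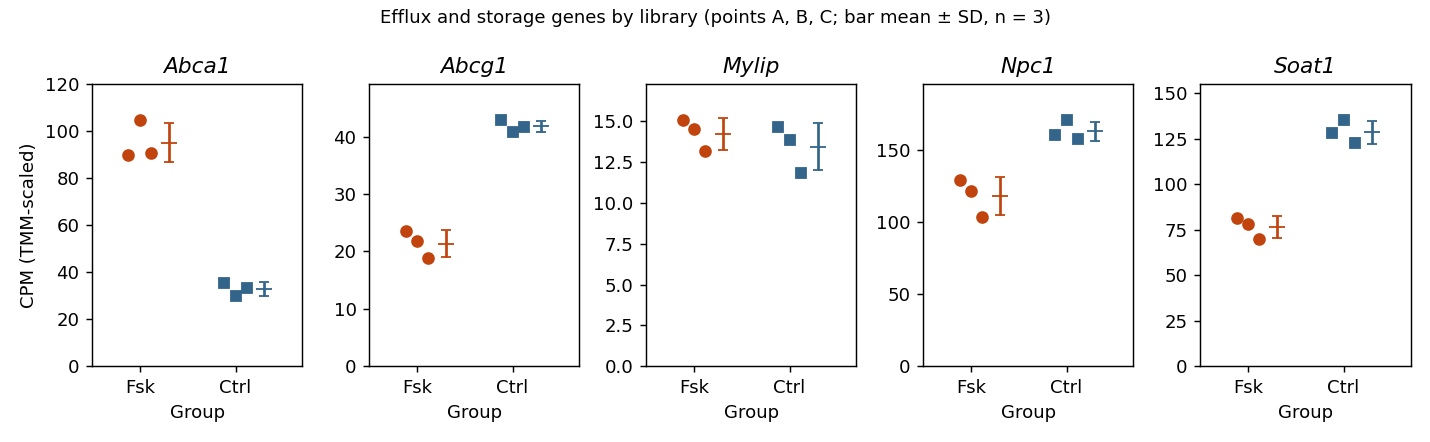
CPM (y axis, from 0) of the 5 efflux and storage genes in the libraries A, B and C of Fsk (orange, left) and Ctrl (blue, right), with the mean ± SD beside the points. Abca1 is higher in each Fsk library (90.03 to 105 against 29.9 to 35.5 CPM), Abcg1, Npc1 and Soat1 are lower in each, and Mylip overlaps.

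Mylip, the third LXR target of the group, encodes a ubiquitin ligase that sends lipoprotein receptors to degradation. It had 15.04, 14.5 and 13.2 CPM in Fsk and 14.6, 13.9 and 11.8 CPM in Ctrl, which overlap, and an interval of the log2 fold change of -0.16 to 0.32 (edgeR adjusted p = 0.597). Among Abca1, Abcg1 and Mylip, 1 gene rose, 1 fell and 1 was not called, beside 24.8% of all tested genes called higher and 25.1% called lower.

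Both remaining genes fell. Soat1 (chromosome 1, 156428108 to 156474328), the acyltransferase gene that esterifies cholesterol for storage in droplets, had 81.5, 78.1 and 70.1 CPM in Fsk and 128, 135 and 123 CPM in Ctrl. Its log2 fold change of -0.75 (SE 0.057, adjusted p = 4.14e-09 in edgeR) was as large as that of Sc5d. Npc1 (chromosome 18, 12189694 to 12236386), whose product lets cholesterol out of the lysosome, had 130, 122 and 104 CPM in Fsk and 161, 171 and 158 CPM in Ctrl. It fell by 0.46 (SE 0.062, adjusted p = 6.56e-06), and other genes cover 5.4% of its exon bases. Per kilobase, Soat1 stood at 1.73 ± 0.181 times the level of Abca1 in Fsk and 8.43 ± 1.09 times in Ctrl. Both ratios rest on the deposited length of Soat1, 4767 bases, while its annotated exons cover 8377 bases. A longer length would lower both, and the SD does not cover this.

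Ranked by level per kilobase (RPKM), the most abundant members in Fsk were Scap at 44.2, Msmo1 at 37.6 and Fdps at 36.7, and in Ctrl Sc5d at 50.03, Fdps at 46.7 and Msmo1 at 39.7. Sc5d held rank 5 in Fsk at 29.9 ± 1.16 RPKM and rank 1 in Ctrl at 50.03 ± 0.761 RPKM. These ranks rest on 1 deposited length per gene, which for Sc5d is 2241 bases, while its annotated exons cover 4866 bases. A longer length would lower its rank. The rank of Fdps is uncertain too, since only 13.6% of its stretches are unique. The least abundant were Idi1 and Tm7sf2, at 1.699 and 2.87 RPKM in Fsk and 2.64 and 1.87 RPKM in Ctrl.

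Other genes around the pathway, taken from further lists, are given beside the background of 24.8% of all tested genes called higher and 25.1% called lower. Of 9 genes for SREBP processing and for degradation at the endoplasmic reticulum, 3 rose and 2 fell (22.2% lower). Mbtps1, the protease that first cuts SREBPs in the Golgi, had 179 ± 3.395 CPM in Fsk and 148 ± 4.07 CPM in Ctrl (log2 fold change 0.27), and the ubiquitin ligase genes Rnf139 and Rnf145 moved apart (0.30 and -0.57), with 70.7% of the stretches of Rnf139 unique. Of 12 further synthesis and isoprenoid genes 2 rose and 2 fell (16.7% lower, median 0.02). Aacs, which activates acetoacetate, fell by 0.40, whereas the subunit genes of the dolichol-making prenyltransferase, Nus1 and Dhdds, went to -0.36 and 0.45.

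Lipoprotein uptake genes had 3 of 6 members lower and 2 higher. Vldlr, a receptor for triglyceride-rich lipoproteins, rose 3.76-fold, with 18.2, 18.3 and 12.2 CPM in Fsk and 3.69, 5.56 and 3.54 CPM in Ctrl (edgeR adjusted p = 1.17e-07). Scarb1, the receptor that takes cholesteryl ester from high-density lipoprotein, fell by 0.39. In lysosomal and cytosolic sterol transport, 4 of 10 fell and 1 rose (median -0.15), against 49.9% of all tested genes called in either direction. Lipa, the lysosomal lipase that frees cholesterol from esters upstream of NPC1, had 119 ± 1.91 CPM in Fsk and 180 ± 4.72 CPM in Ctrl and fell by 0.59 (adjusted p = 2.26e-09). The carrier gene Stard5 rose by 0.96 and Gramd1a, which moves plasma membrane cholesterol inward, fell by 0.44. Il16 on the other strand covers 25.1% of the exon bases of Stard5.

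Among 10 tested genes of LXR and oxysterol biology 3 fell and 2 rose, against 25.1% and 24.8% of all tested genes. Soat2, the second cholesterol acyltransferase gene, had 9.48, 9.52 and 5.92 CPM in Fsk and 1.18, 1.74 and 1.34 CPM in Ctrl, and its log2 fold change was 2.53 (SE 0.242, adjusted p = 8.54e-08 in edgeR). It thus rose where Soat1 fell, at a lower level. Nr1h3, the LXR alpha gene, had 12.5 ± 1.28 CPM in Fsk and 7.25 ± 1.58 CPM in Ctrl (log2 fold change 0.78), and the lipid transfer protein gene Pltp fell by 0.41, with 82.4% of its stretches unique. Of 11 fatty acid genes of the SREBP1 branch 6 fell and 2 rose (median -0.16). The fatty acid synthase gene Fasn, the elongase gene Elovl6 and the acetyl-CoA synthetase gene Acss2 had log2 fold changes of -0.68, -0.77 and 0.76.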

How the data were processed

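Polyadenylated RNA of 6 libraries was analysed, 3 Fsk and 3 Ctrl. The authors deposited unnormalized expected counts over exons for 24940 genes, 1 transcript each. STAR, HOMER and mm10 are named per the submitters' processing notes, with versions and settings not given in the sources used here. All deposited counts are multiples of 0.5, 31.8% of them not whole, and were rounded before testing. Why steps of 0.5 occur is not stated.

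The deposited exon length, an annotation value per the file headers, served for levels per kilobase. In edgeR 4.0.16 (R 4.3.3), filterByExpr (minimum count 10, minimum total 15) kept 13357 genes with 99.9% of counts. TMM scaling, glmQLFit and glmQLFTest followed with group as the only term, two-sided, at 0.05 after Benjamini-Hochberg adjustment. SE came from the F statistic, and the biological coefficient of variation was 4.44%. The fit was tested on simulated data. DESeq2 1.42.0, other scalings, no filter, a replicate block, a depth covariate and leaving out each library were alternatives. Named were all members and, of each pathway list, up to 3 genes with the smallest adjusted p below 0.05, besides marker genes and Ctsb, which was chosen after its values were seen. A gene that this rule names is not reported here. Members and lists were chosen with earlier results of these data known.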

Additional observations from a re-analysis of the deposited data

How the results depend on the processing

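The synthesis group had 13 to 15 of 23 genes called lower under all but 2 alternatives. With library size as a covariate 9 were called, and 9 of the 16 genes that remain without members sharing sequence or exons, an alternative chosen after seeing the data. Genes called higher numbered 1 with DESeq2, with the replicate block and with library size as a covariate, and that gene was Scap. In that subset, which leaves out Scap, the 1 gene called higher was Tm7sf2. The number was 1 to 2 when each library was left out. With library size as a covariate 4297 genes were called in all, 2299 of them lower, against 6668 and 3349 in the main fit. The synthesis median was -0.26 with the covariate, against -0.35. The calls of Acat2 (-0.24), Idi1 (-0.34), Sqle (-0.16), Nsdhl (-0.26), Ebp (-0.30) and Tm7sf2 (0.36) were lost, each with the same direction. The SE of Ebp was 0.111 with the covariate and 0.071 without it. The cause was not tested. Depth and treatment are partly confounded, each Ctrl library being deeper. Library size alone in place of TMM put 58.1% of all called genes higher, against 49.8%, and moved the median of all genes by less than 0.1. In all, 312 of 336 member values kept direction and call, and Abca1, Abcg1, Npc1, Soat1, Sc5d, Insig1 and Stard4 did so under all 12. The reversals concerned genes that were not called. Mvk was at -0.067 without Fsk C and lay at up to 0.074 when other libraries were left out, and Pmvk was at 0.062, Fdft1 at 0.099 and Dhcr7 at 0.0040 with the covariate. Fdft1 ranged from -0.20 to 0.032 and Srebf2 from -0.032 to 0.055 when libraries were left out, Srebf2 being at 0.042 with library size alone and 0.12 with the covariate. The labels do not say whether replicate letters pair the samples. Deviations of same-letter libraries correlated at r = 0.03, 0.02 and 0.04 over all genes, which cannot settle it with 3 libraries per group. With the replicate block, 14 synthesis genes were lower and 6675 genes were called, and only the call of Tm7sf2 was lost among the members (adjusted p = 0.0549).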
